A study of Mus musculus with 8 samples.

Results

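The methionine cycle and its one-carbon branches were examined through 9 genes, Mat1a, Mat2a, Gnmt, Bhmt, Ahcy, Cbs, Cth, Shmt1 and Shmt2, out of 24411 gene symbols in the deposited table. They were chosen by name as enzymes of this pathway, with earlier results of these data known. All 9 passed the low-count filter that left 12122 genes to test. RNA was sequenced from hepatocytes, the parenchymal cells of the liver, of wild-type mice (WT, 4 libraries) and of mice in which Taf2 was conditionally knocked out in hepatocytes only (4 libraries), all harvested 2 days after plating. Taf2 encodes a subunit of the general transcription factor TFIID, which contacts core promoters and helps RNA polymerase II to assemble there. The sources used here do not give the driver of the deletion, the alleles of the wild-type mice, or the mice's ages and sexes. Nothing in them says that replicates came from separate animals, so p-values measure the spread between these libraries, which may be technical.

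Methionine is converted to S-adenosylmethionine (SAM), the donor of methyl groups in most cellular methylation, by methionine adenosyltransferases. After the methyl group is passed on, S-adenosylhomocysteine is split into adenosine and homocysteine, which is either remethylated to methionine or drawn off by transsulfuration into cysteine. Serine hydroxymethyltransferases load folate with one-carbon units, which feed the remethylation step as well as nucleotide synthesis. Liver carries out a large part of the body's methionine metabolism and holds enzymes, among them the Mat1a and Gnmt products, that most other tissues make little of.

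Of the 9 genes, 5 were higher in the knockout libraries (Mat1a, Mat2a, Gnmt, Ahcy and Shmt2) and 3 were lower (Cbs, Cth and Shmt1) at an edgeR adjusted p under 0.05. Bhmt did not pass. Across all genes tested, 30.2% were higher and 31.2% lower by the same rule, or 61.4% in either direction, so a call by itself was common in this comparison. For 7 of the 9 the libraries of the genotypes did not overlap, against 54.7% of all genes. The median absolute log2 fold change was 0.67 over the 9 genes and 0.22 over all genes tested. The median signed change was 0.12 against -0.0035. As the 9 were chosen with earlier results known, these figures are a description. Summed over the 9 genes, transcripts made up 0.175% to 0.180% of all counts in wild type and 0.236% to 0.266% in knockout. Most of that rise was Ahcy, and the other 8 genes made up 0.106% to 0.109% and 0.118% to 0.129%.

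Estimated counts summed to between 18947059 and 23933589 per library, and the 9 genes held between 440 and 31804 counts each per library, so counting error alone was at most 4.77% of a value. Taf2 stood at 42.2 to 46.4 CPM (counts scaled to library size, with sizes adjusted by edgeR's TMM method) in wild type and at 12.7 to 15.7 CPM in knockout, so every library matched its label. Hepatocyte markers were abundant in every library, at a summed 53810 to 58609 CPM in wild type and 68273 to 75218 CPM in knockout, with 10 of 15 higher and 3 lower. That rise came from the albumin gene Alb, without which the sum was 17483 to 18507 CPM in wild type and 15364 to 15791 CPM in knockout. The 3 that fell were Apoa1, Apob and Cps1, and of these Apob fell the furthest in CPM, from a mean of 5694 to 3397. The median log2 fold change of the 15 markers was 0.54, so most did not share the fall of the sum without Alb. Most markers of 3 other liver cell types were also higher. Macrophage markers (10 of 10 higher) went from a summed 86.7 to 115.6 CPM to 233 to 263 CPM. Most of that sum was Cd68, without which it went from 14.25 to 16.1 to 73.8 to 80.3 CPM. Endothelial markers (8 of 9 tested) went from 45.7 to 51.1 to 121 to 128 CPM. Stellate cell markers (9 of 10) went from 65.4 to 69.8 to 139.5 to 153 CPM. Most of that sum was Reln, without which it went from 5.86 to 7.36 to 43.7 to 47.2 CPM. Cholangiocyte markers, with 3 of 5 tested higher and 2 lower, went from 315 to 328 to 471 to 517 CPM, or from 116 to 129.7 to 153 to 181 CPM without Cldn4. The bile duct keratin genes Krt19 and Krt7 fell, by 0.50 and 1.71 on the log2 scale. None of the listed markers of these cells was at 0 in a whole genotype. The part of these shifts in the results below was not tested. In such bulk samples, fewer cells of a type and less RNA per cell cannot be told apart.

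Promoter sequence was taken from RefSeq (GRCm38.p6, the mm10 build) for 7 of the 9 genes, all except Mat1a and Cth. The 100 bases before the start site are shown for the 3 genes whose window held no annotated exon. They include both serine hydroxymethyltransferase genes, which moved in opposite directions. Capitals mark matches, on either strand, to TATAAA (the TATA box), CCAAT or GGGCGG (the GC box).
Shmt1: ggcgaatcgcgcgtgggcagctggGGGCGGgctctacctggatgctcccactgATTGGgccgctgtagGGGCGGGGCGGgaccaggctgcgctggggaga
Shmt2: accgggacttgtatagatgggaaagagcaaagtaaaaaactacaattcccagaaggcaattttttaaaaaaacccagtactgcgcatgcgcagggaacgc
Ahcy: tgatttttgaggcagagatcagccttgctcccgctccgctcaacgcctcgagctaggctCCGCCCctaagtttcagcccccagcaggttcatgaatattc
These windows lie on the minus strand at chr11:60811266-60811365 (Shmt1), chr10:127522445-127522544 (Shmt2) and chr2:155074498-155074597 (Ahcy). The Shmt1 window was 73% G and C, with GC boxes of which 2 overlap in 1 run and with an inverted CCAAT box, while the Shmt2 window was 43% G and C and held none of the 3 motifs. Ahcy had 1 GC box in inverted orientation. Over the 7 windows, TATAAA was found in 1 (Mat2a), CCAAT in 5 (Mat2a, Gnmt, Bhmt, Cbs and Shmt1) and GGGCGG in 4 (Mat2a, Ahcy, Cbs and Shmt1). Among 32851 promoter windows of the same length the shares were 5.56%, 18.9% and 24.7%. The windows of Mat2a, Gnmt, Bhmt and Cbs held annotated exons, so matches in them may lie in transcribed sequence. A match describes these letters only.

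Of the isozyme genes for SAM synthesis, Mat1a rose the more. Mat1a, on chromosome 14 from 41105012 to 41124428, encodes the methionine adenosyltransferase subunit of adult liver. Its level was 73.4, 74.5, 76.99 and 80.1 CPM in wild-type replicates 1 to 4 and 135, 120, 135 and 112 CPM in knockout replicates 1 to 4. All knockout libraries lay above all wild-type libraries, and the mean rose from 76.3 ± 2.97 to 125.8 ± 11.5 CPM (SD, n = 4 each), or by 0.72 on the log2 scale (SE 0.052), with an edgeR adjusted p of 2.61e-10. Mat2a, on chromosome 6 from 72432796 to 72439556, encodes the isozyme that is found in most tissues. It stood at 255, 263, 252 and 260.2 CPM in wild type and at 299.9, 283, 278 and 259 CPM in the knockout. Knockout replicate 4 lay below wild-type replicates 2 and 4. The rise from 257 ± 5.31 to 279.8 ± 17.0 CPM was small (log2 change 0.12 ± 0.041 SE, edgeR adjusted p of 0.0154), and it rested on knockout replicate 1, without which the adjusted p was 0.0714 and the log2 fold change 0.091. Permuting the 8 Mat2a values between genotypes gave an exact two-sided p of 0.0857.

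The ratio of Mat1a to Mat2a within a library needs no scaling between libraries. It was 0.288, 0.283, 0.306 and 0.308 in wild type and 0.452, 0.424, 0.488 and 0.435 in the knockout, with no overlap. On the log2 scale the ratio rose by 0.60, from -1.76 ± 0.062 to -1.16 ± 0.089 (SD, n = 4 each; exact two-sided permutation p = 0.0286, the smallest that 4 against 4 allows). These are ratios of CPM and are read only for their change. Per kilobase of transcript, Mat2a remained the more abundant of the pair in both genotypes, at 91.8 ± 1.89 against 22.0 ± 0.857 CPM per kb in wild type and 99.8 ± 6.05 against 36.3 ± 3.32 CPM per kb in the knockout.

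**Figure D1:**
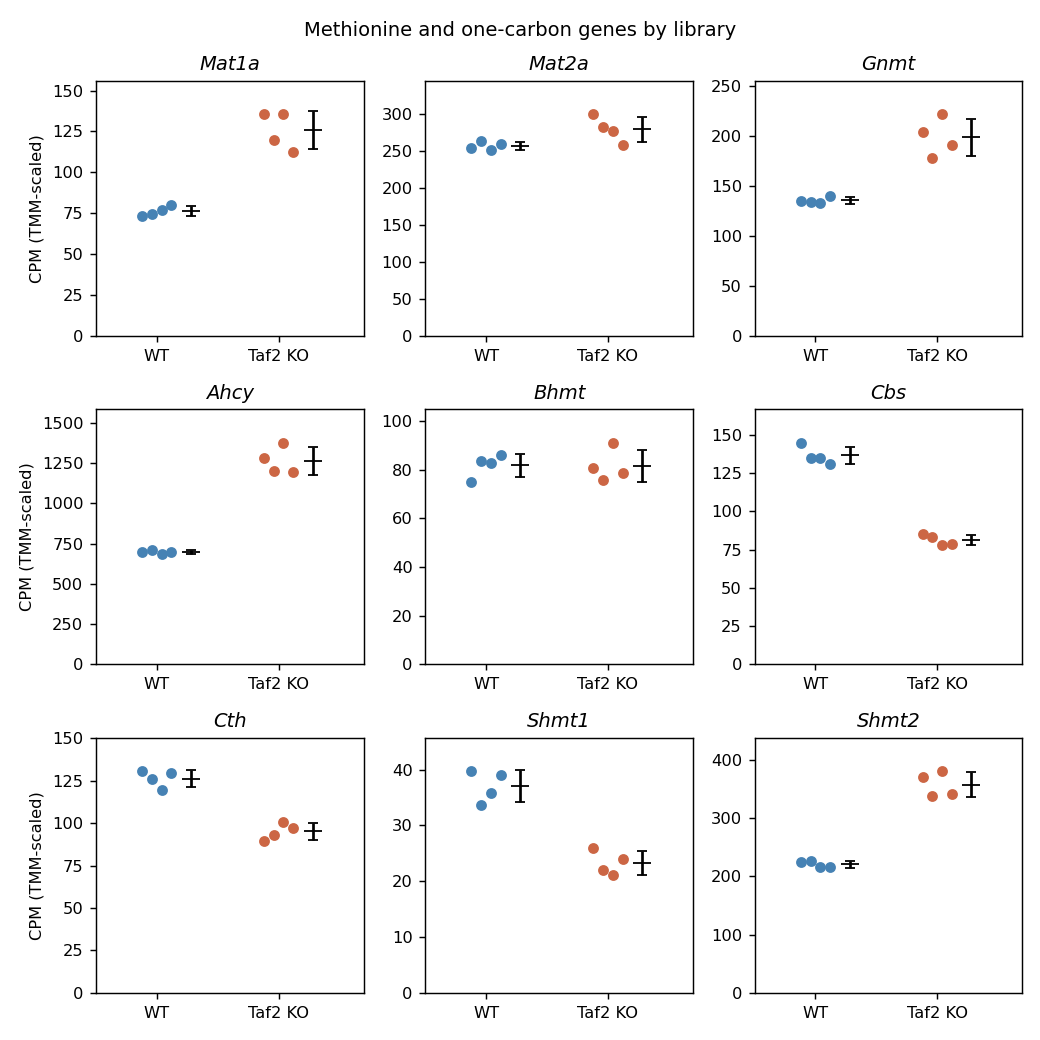
Level of each of the 9 genes (vertical axis, CPM on TMM-scaled library sizes, from 0) in the 4 wild-type and 4 Taf2 knockout libraries (points), with the mean and SD beside them. The knockout points of Mat1a, Gnmt, Ahcy and Shmt2 sit above all wild-type points, those of Cbs, Cth and Shmt1 sit below, and those of Mat2a and Bhmt overlap the wild type.

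Gnmt and Ahcy, whose enzymes use SAM and clear its product, both rose. Gnmt (chromosome 17, 46725664 to 46729211) encodes glycine N-methyltransferase, which spends excess SAM on methylating glycine to sarcosine. It was at 135, 134, 133 and 140.2 CPM in wild type and at 204, 178, 221 and 191 CPM in the knockout. The groups were separate, and the mean rose from 135 ± 3.32 to 198 ± 18.8 CPM (log2 change 0.55 ± 0.051 SE, edgeR adjusted p of 1.17e-08). Ahcy (chromosome 2, 155059310 to 155074497) encodes S-adenosylhomocysteine hydrolase, the enzyme that removes the product of methylation reactions. Its values were 695, 711, 682 and 697 CPM in wild type and 1279, 1197, 1375 and 1194.5 CPM in the knockout. This was the largest change of the 9, a rise from 696 ± 11.5 to 1261 ± 85.1 CPM (log2 change 0.86 ± 0.042 SE, edgeR adjusted p of 5.91e-13), and it was larger in size than that of 88.1% of all genes tested. Ahcy values were not whole numbers in any of the 8 libraries, so part of its reads was shared with other genes and its level is uncertain to that extent. Of the 9 genes Ahcy alone had such values.

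Of 6 partner genes of methionine adenosyltransferase and S-adenosylhomocysteine, 2 were higher, 1 was lower and 3 did not pass (median log2 fold change -0.0090). Mat2b, the regulatory subunit that binds the Mat2a product, rose from 39.6 ± 1.79 to 44.4 ± 1.50 CPM (log2 change 0.16 ± 0.045 SE). Ada, the adenosine deaminase gene, rose from 1.40 ± 0.061 to 2.49 ± 0.200 CPM (log2 change 0.83 ± 0.15 SE). Adk, which encodes the adenosine kinase that removes the other product of the Ahcy reaction and was the most abundant of the list, was at 302 ± 6.59 CPM in wild type and 292 ± 2.34 CPM in knockout, with an edgeR adjusted p of 0.233. Ahcyl2, an Ahcy-like gene, fell by 0.19 on the log2 scale (SE 0.047).

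Among 8 small-molecule methyltransferases, which consume SAM, 4 were higher and 3 lower (median log2 fold change 0.14). Inmt, the indolethylamine N-methyltransferase gene, rose from 2.66 ± 0.253 to 23.1 ± 2.34 CPM (log2 change 3.12 ± 0.099 SE), the largest change in any of the pathway lists. Pemt, which makes phosphatidylcholine and is a major user of SAM in liver, rose from 26.0 ± 1.04 to 34.5 ± 2.05 CPM, and the histamine methyltransferase gene Hnmt from 3.40 ± 0.346 to 5.30 ± 0.762 CPM. Tpmt and Nnmt, which encode the thiopurine and nicotinamide methyltransferases, fell by 0.74 (SE 0.079) and 0.15 (SE 0.042) on the log2 scale.

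The routes that take homocysteine back to methionine differed. Bhmt (chromosome 13, 93616891 to 93637758) encodes betaine-homocysteine methyltransferase, which uses betaine made from choline. It stood at 75.1, 83.5, 82.6 and 86.0 CPM in wild type and at 80.7, 75.8, 91.0 and 78.4 CPM in the knockout. The groups overlapped, with means of 81.8 ± 4.70 and 81.5 ± 6.67 CPM (log2 fold change -0.0035, 95% interval -0.11 to 0.10; edgeR adjusted p = 0.959). Mtr, which encodes methionine synthase, the folate-dependent enzyme for the same step, was at 19.0, 17.9, 19.9 and 21.4 CPM in wild type and at 15.5, 15.3, 12.5 and 13.4 CPM in the knockout. Its groups were separate, and it fell from 19.5 ± 1.45 to 14.2 ± 1.44 CPM (log2 change -0.46 ± 0.076 SE, edgeR adjusted p of 2.58e-05). The ratio of Bhmt to Mtr was 3.95, 4.66, 4.15 and 4.03 in wild type and 5.21, 4.96, 7.26 and 5.85 in the knockout. It rose by 0.46 on the log2 scale, from 2.07 ± 0.106 to 2.52 ± 0.245 (SD, n = 4 each; exact two-sided permutation p = 0.0286). That p was 0.0571 without wild-type replicate 1, 3 or 4 or without knockout replicate 3, whose ratio was the highest. With 4 libraries against 3 the smallest exact p is 0.0286 and the next possible value is 0.0571. Without knockout replicate 3 the rise was 0.35, and without wild-type replicate 1, 3 or 4 it was 0.43, 0.45 and 0.44. Leaving out a library cannot make separate groups overlap, so their separation is no further check.

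Choline and methyl-donor metabolism was followed in 8 genes, of which 1 was higher, 3 were lower and 4 did not pass (median log2 fold change -0.052). Chdh, the mitochondrial choline dehydrogenase gene, rose from 29.8 ± 3.39 to 90.4 ± 9.78 CPM (log2 change 1.60 ± 0.072 SE). Aldh7a1, whose product can oxidise betaine aldehyde, fell from 173.7 ± 5.61 to 129.9 ± 2.75 CPM. Bhmt2, the neighbour and homologue of Bhmt, fell from 22.6 ± 0.615 to 14.7 ± 1.42 CPM. Chka, a choline kinase gene and, over both genotypes together, the most abundant of the list, fell from 172 ± 8.90 to 151 ± 9.66 CPM.

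**Figure D2:**
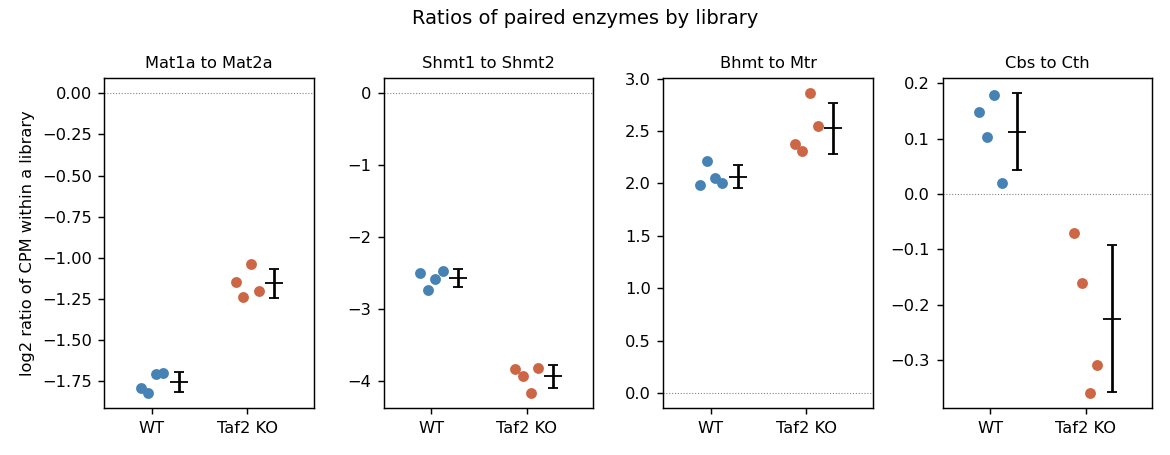
Log2 ratio of CPM within a library (vertical axes, each on its own scale) for Mat1a to Mat2a, Shmt1 to Shmt2, Bhmt to Mtr and Cbs to Cth in the 4 wild-type and 4 knockout libraries (points), with the mean and SD beside them. The groups are separate in all 4 panels, and the change is widest for Shmt1 to Shmt2, at -1.37 on the log2 scale.

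Both enzymes of transsulfuration, which turns homocysteine into cysteine, fell. Cbs (chromosome 17, 31612623 to 31637233) encodes cystathionine beta-synthase, the first step. It was at 145, 135, 135 and 131 CPM in wild type and at 85.3, 83.2, 78.3 and 78.6 CPM in the knockout. The groups lay far apart, and the mean fell from 136.6 ± 5.83 to 81.4 ± 3.45 CPM (log2 change -0.75 ± 0.040 SE, edgeR adjusted p of 3.06e-12). Cth (chromosome 3, 157894248 to 157925081) encodes cystathionine gamma-lyase, which releases cysteine. Its values were 131, 126, 119 and 129 CPM in wild type and 89.6, 93.0, 100.5 and 97.4 CPM in the knockout, again without overlap. Cth fell from 126 ± 5.09 to 95.2 ± 4.79 CPM (log2 change -0.41 ± 0.041 SE, edgeR adjusted p of 4.15e-08). Cbs fell further than Cth. Their ratio went from 1.11, 1.07, 1.13 and 1.01 in wild type to 0.952, 0.894, 0.779 and 0.807 in the knockout, a change of -0.34 on the log2 scale (from 0.11 ± 0.070 to -0.23 ± 0.13, SD, n = 4 each; exact two-sided permutation p = 0.0286). Without wild-type replicate 1, 2 or 3 that p was 0.0571, again the next value above the smallest possible. The change was then -0.33, -0.34 and -0.32.

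Downstream of cysteine 12 genes were listed, of which 11 were in the deposited table. All 11 passed, 4 higher and 7 lower (median log2 fold change -0.18), where 61.4% of all genes tested passed. Both subunit genes of glutamate-cysteine ligase, the first step of glutathione synthesis, rose, Gclc from 1078 ± 85.0 to 1574 ± 104 CPM and Gclm from 141.6 ± 2.71 to 198 ± 5.20 CPM. Gss, which encodes glutathione synthetase, the next step, fell from 193 ± 7.50 to 145 ± 5.25 CPM. Csad, a gene of taurine synthesis, rose from 19.0 ± 0.622 to 35.8 ± 2.98 CPM. The mitochondrial sulfide oxidation genes Ethe1 and Sqrdl fell, Ethe1 from 108.6 ± 6.36 to 59.3 ± 1.07 CPM and Sqrdl from 103 ± 3.34 to 72.4 ± 4.48 CPM.

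The serine hydroxymethyltransferases moved in opposite directions. Shmt1 (chromosome 11, 60788897 to 60811265) encodes the cytosolic isozyme. It stood at 39.7, 33.7, 35.9 and 39.1 CPM in wild type and at 25.9, 22.0, 21.1 and 24.1 CPM in the knockout. No library crossed over, and the mean fell from 37.1 ± 2.82 to 23.3 ± 2.17 CPM (log2 change -0.67 ± 0.066 SE, edgeR adjusted p of 2.80e-08). Shmt2 (chromosome 10, 127517123 to 127522444) encodes the mitochondrial isozyme. Its values were 224, 226, 216 and 216 CPM in wild type and 370.02, 337, 380.1 and 341 CPM in the knockout. It rose from 220.4 ± 5.35 to 357 ± 21.2 CPM (log2 change 0.70 ± 0.041 SE, edgeR adjusted p of 1.06e-11). The Shmt1 to Shmt2 ratio was 0.177, 0.149, 0.166 and 0.181 in wild type and 0.0701, 0.0653, 0.0555 and 0.0705 in the knockout. Its log2 value changed by -1.37, from -2.57 ± 0.124 to -3.94 ± 0.161 (SD, n = 4 each; exact two-sided permutation p = 0.0286). As Shmt1 fell and Shmt2 rose, each without overlap, this p had to be the smallest possible. It adds nothing to the changes of the single genes. Over the 4 ratios compared, the Benjamini-Hochberg adjusted value of each exact permutation p was also 0.0286. That had to be so, as all 4 stood at the smallest possible value, and the adjustment adds no check.

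The serine that these enzymes use can be made from a glycolytic intermediate in 3 steps. All 3 genes of that route fell (median log2 fold change -1.14), as did 31.2% of all genes tested. Phgdh, the first and committed step, fell from 69.1 ± 3.67 to 25.2 ± 2.39 CPM (log2 change -1.46 ± 0.056 SE, edgeR adjusted p of 1.78e-14). Psat1 fell from 189 ± 7.51 to 85.7 ± 3.09 CPM, and Psph, the final phosphatase, from 40.6 ± 2.89 to 29.8 ± 1.21 CPM. In the glycine cleavage system, a mitochondrial complex that also supplies one-carbon units, 2 of 4 genes were lower and 1 was higher (median -0.28). Gldc, the decarboxylase and the most abundant of these genes, went down from 251 ± 11.3 to 185.7 ± 10.02 CPM and Gcsh, its carrier protein, from 70.1 ± 2.60 to 55.0 ± 1.43 CPM. Dld, a subunit that other dehydrogenase complexes share, rose from 144.7 ± 2.22 to 161 ± 2.59 CPM.

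Of 18 folate-cycle genes, 4 were higher, 9 lower and 5 did not pass (median log2 fold change -0.13). Within the mitochondrial arm, Mthfd2 fell from 80.9 ± 2.38 to 47.3 ± 2.18 CPM (log2 change -0.77 ± 0.039 SE), while Mthfd1l, which releases formate, rose from 50.8 ± 1.46 to 93.5 ± 8.39 CPM (log2 change 0.88 ± 0.051 SE). In the cytosol, the trifunctional enzyme gene Mthfd1 fell from 91.0 ± 1.47 to 67.3 ± 0.947 CPM. Fpgs and Ggh, which add and remove the glutamate tails of folate, rose by 0.58 (SE 0.047) and 0.48 (SE 0.088). Aldh1l1, which oxidises formyl-folate and was the most abundant of the list, was at 188 ± 3.19 CPM in wild type and 183 ± 9.37 CPM in knockout, with an edgeR adjusted p of 0.432.

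Folate and SAM carriers gave 2 higher and 1 lower of 5 tested (median 0.011). The mitochondrial folate carrier gene Slc25a32 rose from 15.7 ± 0.493 to 20.5 ± 1.06 CPM. The reduced folate carrier gene Slc19a1, the most abundant of the list, fell from 29.6 ± 1.69 to 25.1 ± 1.92 CPM. Folr2, a folate receptor gene that macrophages express, rose from 0.188 ± 0.095 to 0.734 ± 0.113 CPM, in the same libraries in which all 10 macrophage markers were higher. The part of those cells in this rise was not tested.

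**Figure D3:**
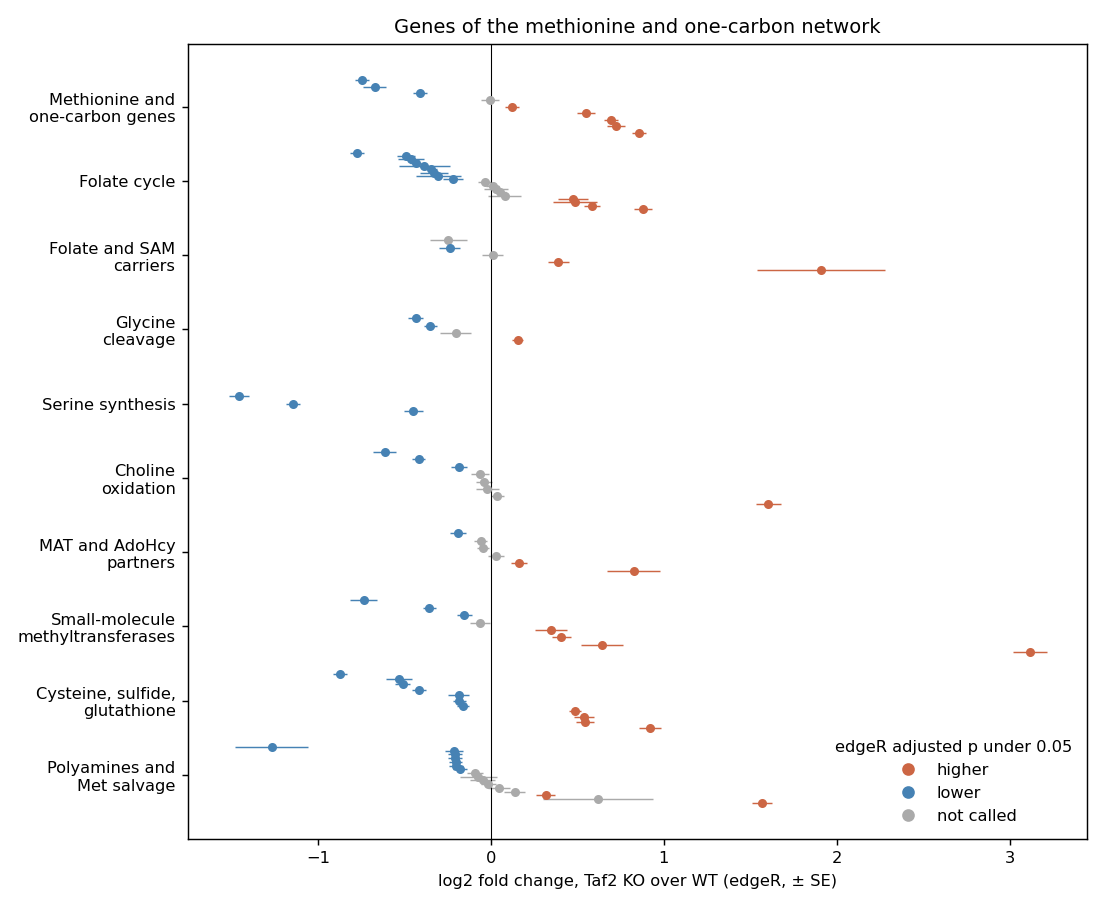
Log2 fold change of knockout over wild type with its SE (horizontal axis) for each tested gene of the 9 and of the pathway lists (rows), coloured by direction where the edgeR adjusted p was under 0.05 and grey otherwise. The 9 genes spread from -0.75 (Cbs) to 0.86 (Ahcy), all 3 serine synthesis genes lie below 0, and Inmt stands farthest right at 3.12.

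Over the 9 pathway lists together, 20 of the 79 tested genes rose and 36 fell. Their median log2 change was -0.073. All genes tested gave 30.2% higher, 31.2% lower and a median of -0.0035. These lists were chosen with earlier results of these data known, so the counts are a description.

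The levels of the 9 genes were ordered per kilobase of transcript. In wild type the order was Ahcy (274 ± 4.53 CPM per kb), Gnmt (131 ± 3.21), Shmt2 (97.4 ± 2.36), Mat2a (91.8 ± 1.89), Cth (69.6 ± 2.81), Cbs (54.8 ± 2.34), Bhmt (32.9 ± 1.89), Mat1a (22.0 ± 0.857) and Shmt1 (13.0 ± 0.986). Every pair of neighbours was separate in its library values, the closest being Shmt2 (lowest 95.2) and Mat2a (highest 93.9). Each length is a plain mean over a gene's matched transcripts, 2 for Shmt2. The spread between libraries leaves out any error in length, so the order of such close neighbours is uncertain. In the knockout the first 5 kept these places. Mat1a moved from rank 8 to rank 6, at 36.3 ± 3.32 CPM per kb, and Cbs from rank 6 to rank 8, at 32.6 ± 1.38. Bhmt lay between them at 32.7 ± 2.68, and the ranges of these 3 genes overlapped, so their order in the knockout is not resolved. The coefficient of variation between libraries was higher in the knockout for 8 of the 9 genes, all but Cbs (4.24% against 4.27% in wild type). That of Gnmt was 9.45% against 2.45% in wild type. The share over all genes was not computed, and the 9 genes come from the same libraries, so they are not separate observations. Over genes as a whole, chi-square per degree of freedom between replicates reached 8.60 in the knockout and 5.18 in wild type.

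**Figure D4:**
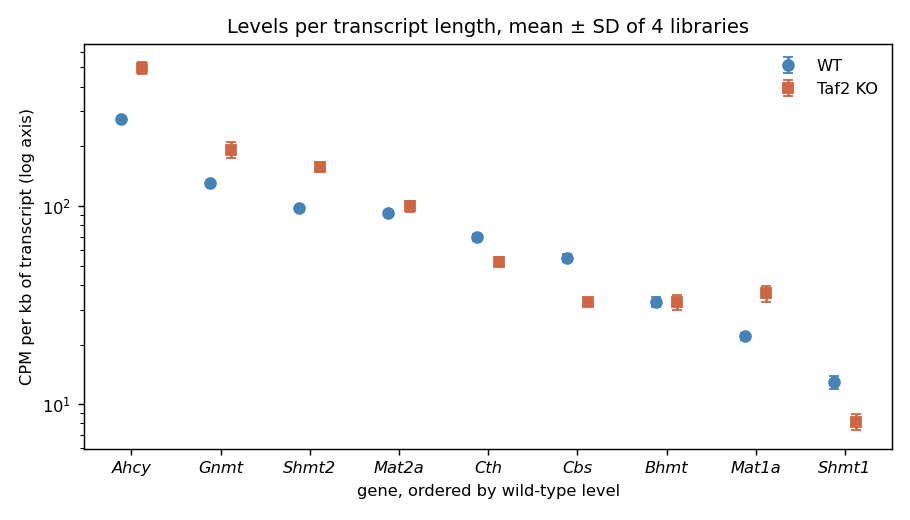
Level of each gene in CPM per kilobase of transcript (vertical log axis), as the mean and SD of 4 libraries, in wild type (circles) and knockout (squares), ordered by wild-type level. Ahcy is highest and Shmt1 lowest in both genotypes, and Mat1a, Bhmt and Cbs lie together in the knockout.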

How the data were processed

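RNA-seq libraries of hepatocytes (4 wild type, 4 Taf2 knockout) were compared. The authors deposited 1 table of estimated counts (RSEM's expected counts) per gene, which they made with RSEM (build mm10), as the submitters' processing notes list. The sources used here do not give its version, the aligner or the strand setting. RSEM divides reads that match several genes. Groups came from sample titles. The table's other 8 columns carry no sample's library name and were left out.

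Expected counts were rounded, filtered with filterByExpr (minimum count 10, minimum total 15), scaled by TMM and tested with edgeR 4.0.16 (quasi-likelihood, R 4.3.3), adjusting over all 12122 genes (Benjamini-Hochberg, threshold 0.05). SE is the absolute log2 fold change over the square root of F. The fit was tried on simulated data with the same spread for all genes. Of 12122 genes, 78, 59 and 63 were changed at folds of 1.25, 1.5 and 2. Of these, 71.8%, 83.1% and 95.2% were recovered, with 5 false calls. In the real data 61.4% of genes were called, so the simulation does not test scaling under so wide a change. Totals ran from 18947059 to 23933589. Replicate pairs differed by more than sampling noise (chi-square per degree of freedom 3.16 to 8.60). Ratios were tested by exact permutation. Coordinates are RefSeq's (GRCm38.p6). Transcript lengths are GENCODE M21 transcripts matched to the table's RefSeq identifiers. DESeq2 1.42.0 and limma 3.58.1 (voom) were alternatives, besides other scalings, filters, thinning, a replicate block and leaving out each library.

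Members, lists and tests were chosen with earlier results of these data known. Named genes are the 9 members, Taf2, Mtr and, per list, up to 3 called genes per direction with the smallest adjusted p plus the most abundant. Of the genes this rule takes, 2 are not reported here.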

Additional observations from a re-analysis of the deposited data

How the results depend on the processing

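Over 16 alternatives the 9 genes gave 3 lower in each and 5 higher in each except without knockout replicate 1, where Mat2a missed the threshold and 4 were higher. Mat2a had log2 fold changes from 0.091 to 0.16 over the alternatives (adjusted p 0.00124 to 0.0714). Bhmt, not called in any, ranged from -0.057 to 0.035. Calls over all genes ran from 3254 to 4023 higher and from 3347 to 3981 lower. Replicate numbers are shared between genotypes, but same-numbered libraries did not deviate together (correlations -0.0686 to 0.0114). Such low correlations cannot exclude that they were prepared together. With a replicate block the calls were 3666 higher and 3771 lower, and 5 and 3 of the 9 genes. With a replicate block the ratio changes were 0.60 (Mat1a to Mat2a), -1.37 (Shmt1 to Shmt2), 0.46 (Bhmt to Mtr) and -0.34 (Cbs to Cth), each at an exact sign-flip p of 0.125, the smallest that 4 pairs allow. Leaving out 1 library at a time, the Bhmt to Mtr change ranged from 0.35 to 0.53. That of Cbs to Cth ranged from -0.39 to -0.29. For both, the exact permutation p was 0.0286 or 0.0571, the smallest and next smallest values that 4 against 3 libraries allow. The changes of Mat1a to Mat2a (0.56 to 0.63) and Shmt1 to Shmt2 (-1.43 to -1.29) kept an exact permutation p of 0.0286. With 4 libraries per genotype an exact permutation test cannot go below that value.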

Other observations

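Polyamine synthesis, which uses decarboxylated SAM, and the salvage of methionine from its by-product were followed in 16 genes, of which 2 were higher, 7 lower and 7 did not pass (median log2 fold change -0.083). Smox, the spermine oxidase gene, rose from 64.8 ± 1.89 to 192 ± 21.6 CPM (log2 change 1.57 ± 0.059 SE), and Oaz2, an ornithine decarboxylase antizyme gene, from 22.8 ± 1.25 to 28.4 ± 1.03 CPM. Sat1, which encodes the acetyltransferase of polyamine breakdown and was the most abundant of the list, fell from 945 ± 33.0 to 819 ± 41.9 CPM. Adi1, a methionine salvage gene, fell from 87.2 ± 3.36 to 75.7 ± 1.95 CPM.

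Amd1 and Amd2, near-identical genes for the enzyme that decarboxylates SAM, shared reads in all 8 libraries. In wild type Amd1 ranged from 118 to 274 CPM and Amd2 from 21.1 to 189.9 CPM. Their sum, which was looked at after these values were seen, was far steadier, at 295 to 308 CPM in wild type and 229 to 253.5 CPM in the knockout, with no overlap.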
